A study of Ovis aries with 2 samples.

Results

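The 10 genes described here are core parts of the circadian clock: CLOCK, PER1, PER2, PER3, CRY1, CRY2, CIART, NR1D1, NR1D2 and DBP. Their rows were found by symbol alone, and the genes were chosen with earlier results of these data known. Each symbol stood in exactly 1 row of the feature table, so the set held 10 of 23141 listed genes in both libraries.

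The data came from the anterior pituitary of Hu sheep, a breed kept in China, in a study of the gland around puberty. One library came from sheep aged 6 months, called 6M below, and 1 from sheep aged 3 months, called 3M. Both preparations shared the same handling: the anterior lobe was separated by shape, digested with type IV collagenase, strained, cleared of red blood cells and run on a Chromium droplet system. How many animals were used, their sex and the hour at which the glands were taken are not given in the labels. Age, library and hour of collection therefore cannot be told apart, every difference is one between 2 libraries, and no test was possible.

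In mammalian cells the clock is a feedback loop. The activators CLOCK and BMAL1 switch on the PER and CRY genes, whose proteins return to silence the activators, so that the transcripts rise and fall over the day. The REV-ERB receptors encoded by NR1D1 and NR1D2 form a further loop by repressing BMAL1, and DBP passes the rhythm on to output genes. Pituitary cells keep such clocks, and hormone release from the gland follows a daily pattern. The question put to the data was whether each clock gene differed in 1 direction in all cell classes, as a shared difference in sampling hour could give. It is asked gene by gene, and counts of genes higher or lower within a class do not answer it. The part of sampling hour was not tested.

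After filtering, 12683 cells were kept from 6M (159721090 UMIs, median 9156 per cell) and 15446 from 3M (126854423 UMIs, median 5022.5). A UMI is a molecular tag that marks 1 captured transcript. The libraries shared 81 barcodes. Pituitary hormone transcripts were abundant, with PRL at 34.8% of UMIs in 6M and 21.7% in 3M. The cells formed 31 clusters, and 17 of these held at least 90% cells of 1 library. Names were given from marker genes, and 9 classes had at least 50 cells in each library: lactotroph-like (5728 cells in 6M and 2674 in 3M), somatotroph-like (506 in 6M and 1293 in 3M), gonadotroph-like (102 in 6M and 1174 in 3M), stem or folliculostellate-like (2254 in 6M and 3080 in 3M), endothelial-like (436 in 6M and 1876 in 3M), macrophage-like (1288 in 6M and 1268 in 3M), dendritic-like (399 in 6M and 104 in 3M), T or NK-like (1012 in 6M and 110 in 3M) and cycling cells (50 in 6M and 114 in 3M). Different clusters held most of some classes. Cluster 13 held 57.8% of lactotroph-like cells in 6M and cluster 9 held 58.5% in 3M. Stem or folliculostellate-like cells lay mostly in cluster 1 (85.0%) for 6M and cluster 2 (85.9%) for 3M. Macrophage-like cells lay mostly in cluster 3 (79.9%) for 6M and cluster 22 (96.1%) for 3M. Cluster 7 led the endothelial-like cells at both ages (66.1% in 6M and 99.9% in 3M), as did cluster 19 the gonadotroph-like cells (86.3% in 6M and 74.9% in 3M). Clusters without a name held 5.72% of cells in 6M and 21.8% in 3M.

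Most clock genes did not differ in the same direction in all cell classes. CRY1 was higher in 6M in 5 of 5 measured classes, and PER2 and CIART each in 3 of 3. Each of the other genes was higher in some measured classes and lower in others. The counts of genes within each class follow and describe the classes only. Lactotroph-like cells, which make prolactin, had all 10 genes at a higher level in 6M. Endothelial-like cells, which line vessels, had the 4 genes that could be measured at a lower level, but the interval left out 0 for DBP alone. These signs were not stable: within cluster 7 NR1D2 was at 0.10 (-0.34 to 0.51), and PER1 was at 0.08 under the stricter cell filter and at 0.09 with doublets kept. Stem or folliculostellate-like cells, the supporting cells of the gland, had 8 genes higher and 2 lower, somatotroph-like cells, which make growth hormone, 6 and 2, macrophage-like cells 3 and 3, and dendritic-like cells 1 and 1. Gonadotroph-like cells, which make the hormones that drive the gonads, had 1 gene higher and 6 lower. T or NK-like cells had PER1 alone, and it was lower. No clock gene reached the minimum in cycling cells. The shares of all measured genes that were higher in 6M were 53.1% in lactotroph-like, 47.5% in endothelial-like, 48.6% in stem or folliculostellate-like, 51.7% in somatotroph-like, 53.8% in macrophage-like, 53.1% in dendritic-like, 48.6% in gonadotroph-like, 60.4% in T or NK-like and 49.7% in cycling cells. The single measured gene of the T or NK-like and the 4 of the endothelial-like class are too few to read against these shares.

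These counts take genes with at least 100 UMIs summed over both libraries in a class, which 48 of the 90 pairs of gene and class reached. Levels are CPM, that is UMIs scaled to a common library total, on effective library sizes computed per class. Each ratio is on the log2 scale with 6M on top and 3M below, and intervals are exact 95% intervals that cover counting error only. Of the 48 pairs, 29 were higher and 19 lower in 6M. At least 2-fold higher were 5 of the 48, a larger share than the 3.68% of all gene and class pairs. At least 2-fold lower was 1 of the 48, a smaller share than the 3.02% of all pairs. The interval lay above 0 in 19 of the 48, a larger share than in all pairs (22.9%). It lay below 0 in 7, a smaller share than in all pairs (21.2%), and it held 0 in 22. The 2-fold higher pairs were PER3, CRY1 and CIART in lactotroph-like cells and CRY1 and CIART in macrophage-like cells. The 2-fold lower pair was NR1D1 in gonadotroph-like cells.

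**Figure D1:**
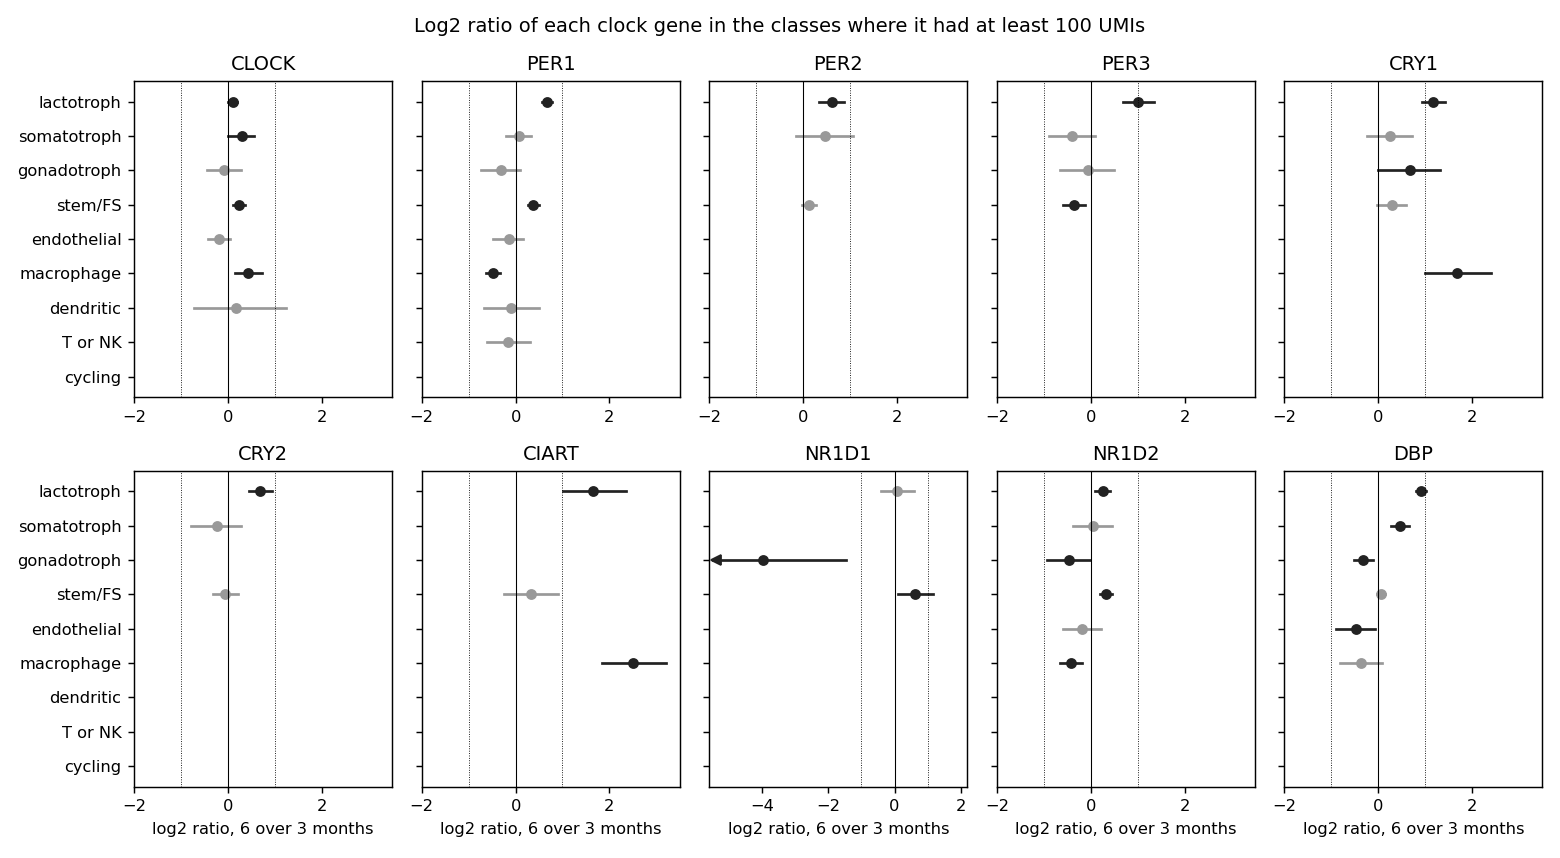
Log2 ratio (6M over 3M, horizontal axis) of each clock gene in each cell class (vertical axis) with at least 100 summed UMIs. Points are ratios, bars are exact 95% intervals of counting error, black marks intervals that leave out 0, grey those that hold it, and dotted lines mark 2-fold. The arrow for NR1D1 in gonadotroph-like cells marks an interval that runs on to -9.30. CRY1 lies right of 0 in all 5 of its classes, while PER1, DBP and NR1D2 lie on both sides.

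CLOCK (Gene ID 100171391) encodes the activator that pairs with BMAL1. It was higher in 5 of 7 measured classes and lower in 2, and no ratio reached 2-fold. In macrophage-like cells it stood at 37.4 CPM in 6M and 27.6 CPM in 3M, a log2 ratio of 0.43 (0.14 to 0.73). In stem or folliculostellate-like cells the levels were 52.2 CPM in 6M and 44.2 CPM in 3M (0.24, 0.11 to 0.37). In endothelial-like cells they were 101 CPM in 6M and 114 CPM in 3M (-0.18, -0.42 to 0.05). Every measured interval of CLOCK lay within 2-fold except that of dendritic-like cells. The ratio was 0.29 in somatotroph-like cells (0.01 to 0.56), 0.18 in dendritic-like cells (-0.73 to 1.23), 0.10 in lactotroph-like cells (0.01 to 0.19) and -0.08 in gonadotroph-like cells (-0.44 to 0.27). The share of all genes that were higher in each of those same 7 classes, which CLOCK was not, was 9.26%. No share was computed for genes higher in 5 of the 7, so the CLOCK count cannot be read against it.

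PER1 (100174984) is a repressor of the CLOCK and BMAL1 pair and is also switched on within minutes by hormones and stress. It was the gene measured most widely, in 8 classes, and its direction was split. Levels were 31.1 CPM in 6M and 19.6 CPM in 3M in lactotroph-like cells, a log2 ratio of 0.67 (0.56 to 0.77). In stem or folliculostellate-like cells they were 64.3 CPM in 6M and 49.4 CPM in 3M (0.38, 0.26 to 0.50). In macrophage-like cells PER1 was lower, at 101 CPM in 6M and 140.2 CPM in 3M (-0.48, -0.62 to -0.33). These 3 classes were the ones whose interval left out 0 for PER1. The other classes lay between -0.30 in gonadotroph-like and 0.07 in somatotroph-like cells. T or NK-like cells were at -0.16 (-0.60 to 0.32), in a class where the median of all genes was 0.15 and the interval lay above 0 for 19.7% of genes and below for 9.24%. Among genes measured in the same 8 classes, 8.86% were higher in every one, which PER1 was not. No share was computed for genes split as PER1 was.

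PER2 (443259) and PER3 (100125623) encode the partner repressors, and they parted from each other. PER2 was higher in each of its 3 classes, as were 23.7% of genes. It stood at 5.10 CPM in 6M and 3.35 CPM in 3M in lactotroph-like cells, a log2 ratio of 0.61 (0.34 to 0.88). Its intervals held 0 in somatotroph-like cells (0.46, -0.15 to 1.06) and in stem or folliculostellate-like cells (0.12, -0.03 to 0.28). PER3 was higher in lactotroph-like cells alone, at 4.34 CPM in 6M and 2.14 CPM in 3M (1.02, 0.70 to 1.35). In stem or folliculostellate-like cells PER3 was lower, at 12.5 CPM in 6M and 16.0 CPM in 3M (-0.36, -0.60 to -0.13). In somatotroph-like cells the ratio was -0.39 (-0.89 to 0.09) and in gonadotroph-like cells -0.05 (-0.65 to 0.50).

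CRY1 (443263), a cryptochrome that blocks the activators late in the cycle, was the member with the most uniform direction. It was higher in 6M in 5 of 5 measured classes and, with classes below the minimum included, in 9 of 9. Among genes measured in the same 5 classes, 12.4% were likewise higher in each. CRY1 stood at 13.1 CPM in 6M and 4.10 CPM in 3M in macrophage-like cells (93 UMIs in 6M and 23 in 3M), a log2 ratio of 1.67 (1.00 to 2.40). In lactotroph-like cells the levels were 8.66 CPM in 6M and 3.84 CPM in 3M (1.17, 0.94 to 1.42). In gonadotroph-like cells they were 14.9 CPM in 6M and 9.29 CPM in 3M (0.68, 0.00 to 1.31). The differences were smaller elsewhere, and the intervals of the other measured classes held 0. The ratio was 0.28 in stem or folliculostellate-like cells (-0.02 to 0.59) and 0.24 in somatotroph-like cells (-0.24 to 0.72). Below the minimum, endothelial-like cells had 23 UMIs in 6M and 42 in 3M, a ratio of 0.88 (0.08 to 1.65). Dendritic-like cells had 35 UMIs in 6M and 1 in 3M, T or NK-like cells 56 and 2, and cycling cells 7 and 4. The intervals of these last classes held 0, and no share of all genes was computed for the 9 classes.

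CRY2 (100169934), the other cryptochrome, was higher in 1 of its 3 measured classes and lower in 2, where the intervals held 0. It was higher in lactotroph-like cells, at 5.87 CPM in 6M and 3.64 CPM in 3M (0.69, 0.44 to 0.95). It was at -0.24 in somatotroph-like cells (-0.78 to 0.27) and at -0.06 in stem or folliculostellate-like cells (-0.32 to 0.22). In macrophage-like cells, where CRY1 had its highest measured ratio, CRY2 was below the minimum. It had only 28 UMIs in 6M and 41 in 3M, a ratio of -0.89 (-1.64 to -0.17). Free RNA was expected to give 38.1% of these UMIs in 6M and 10.6% in 3M, and with it subtracted the ratio was -1.32.

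CIART (101116794), which encodes a repressor known from the mouse as Chrono, had the highest ratio of any member. It was higher in 3 of 3 measured classes, as were 23.5% of genes, and in 8 of 8 classes in which a ratio could be formed. Beyond the 3, every class was below the minimum and its interval held 0. No share of all genes was computed for the 8 classes. Over single clusters with a ratio, all but 1 below the minimum, CIART was higher in 9 and lower in 5. In macrophage-like cells it stood at 22.2 CPM in 6M and 3.92 CPM in 3M (158 UMIs in 6M and 22 in 3M), a log2 ratio of 2.50 (1.85 to 3.21). In lactotroph-like cells the levels were 1.54 CPM in 6M and 0.491 CPM in 3M (164 UMIs in 6M and 22 in 3M), a ratio of 1.65 (1.00 to 2.36). In stem or folliculostellate-like cells the ratio was 0.32 (-0.24 to 0.90). CIART was scarce everywhere but in the macrophage-like cells of 6M, where cluster 3 had 28.1 CPM on UMI totals. Cluster 22, which held most such cells in 3M, had 3.94 CPM. Cluster 0, a further macrophage-like cluster with 219 cells in 6M, had 0.670 CPM (1 UMI), so the 6M level lay in 1 of its 2 main macrophage-like clusters.

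NR1D1 (100174903), which encodes REV-ERB alpha, showed the sharpest split between classes. Gonadotroph-like cells held 1 UMI in 6M and 130 in 3M, or 0.596 CPM in 6M and 9.44 CPM in 3M, a log2 ratio of -3.99 (-9.30 to -1.48). In stem or folliculostellate-like cells NR1D1 was higher, at 3.87 CPM in 6M and 2.52 CPM in 3M (0.62, 0.10 to 1.16), but at -0.13 once unnamed clusters were joined to their nearest class. In lactotroph-like cells it was at 1.20 CPM in 6M and 1.14 CPM in 3M (0.08, -0.40 to 0.57). The gonadotroph-like difference thus rests on a single UMI in 102 cells of 6M. The endothelial-like cells, the other class with a relatively high level, had 4.60 CPM in 6M and 5.02 CPM in 3M (9 UMIs in 6M and 33 in 3M), a ratio of -0.13 (-1.38 to 0.97).

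NR1D2 (101103536), which encodes REV-ERB beta, was higher in 3 classes and lower in 3. It stood at 50.7 CPM in 6M and 40.3 CPM in 3M in stem or folliculostellate-like cells, a log2 ratio of 0.33 (0.20 to 0.46). In lactotroph-like cells the levels were 10.6 CPM in 6M and 8.87 CPM in 3M (0.25, 0.09 to 0.42). In macrophage-like cells NR1D2 was lower, at 41.4 CPM in 6M and 55.8 CPM in 3M (-0.43, -0.66 to -0.20). Gonadotroph-like cells had the lowest ratio, with 26.8 CPM in 6M and 37.0 CPM in 3M (-0.47, -0.94 to -0.02). The intervals held 0 in endothelial-like (-0.18, -0.58 to 0.21) and somatotroph-like cells (0.04, -0.38 to 0.45). Genes higher in each of those 6 classes, which NR1D2 was not, made up 9.57%. For genes split as NR1D2 was, no share was computed.

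DBP (100192428), a transcription factor whose level follows the activators closely, was likewise higher in 3 classes and lower in 3. In lactotroph-like cells it stood at 33.3 CPM in 6M and 17.8 CPM in 3M, a log2 ratio of 0.91 (0.80 to 1.02). In somatotroph-like cells the levels were 79.8 CPM in 6M and 58.0 CPM in 3M (0.46, 0.26 to 0.65), and DBP and CLOCK were the 2 of 8 genes there with an interval above 0 (15.7% of genes). In gonadotroph-like cells DBP was lower, at 132 CPM in 6M and 164 CPM in 3M (-0.32, -0.52 to -0.12). It was also lower in endothelial-like cells, at 31.7 CPM in 6M and 44.1 CPM in 3M (-0.48, -0.90 to -0.08), though at -0.10 (-0.54 to 0.31) within cluster 7 alone. DBP was thus higher in the prolactin and growth hormone classes and lower in gonadotroph-like cells, while its endothelial-like value depended on the clusters taken. The interval held 0 in stem or folliculostellate-like cells (0.06, -0.02 to 0.15) and in macrophage-like cells (-0.38, -0.83 to 0.07). Free RNA was expected to give 89.1% of the macrophage-like DBP UMIs in 6M and 53.4% in 3M, so most DBP UMIs there lay within what free RNA was expected to give.

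**Figure D2:**
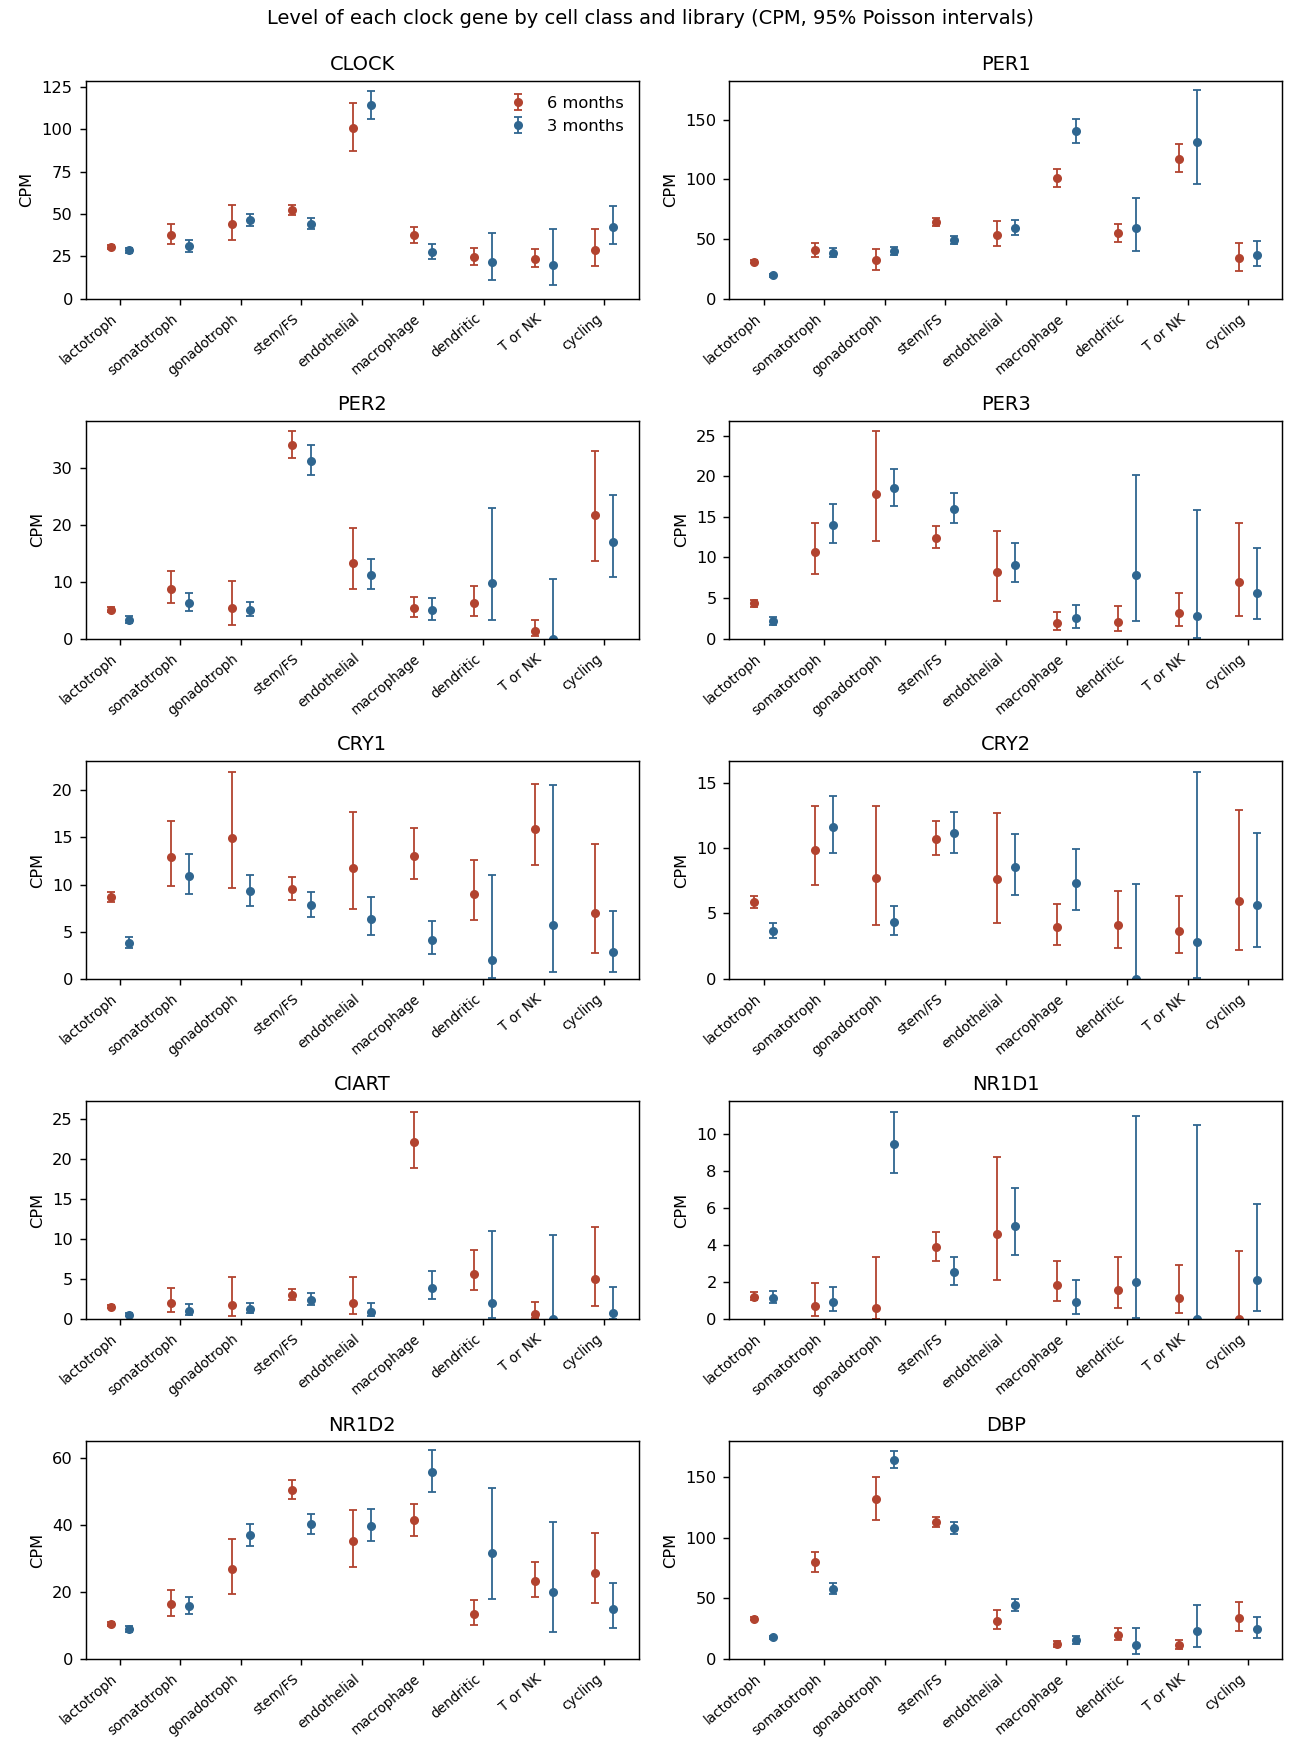
Level of each clock gene (CPM, vertical axes, each starting at 0) in the 9 cell classes, with 6M in red left of 3M in blue. Points are levels of summed UMIs in 1 library and bars are exact 95% Poisson intervals of counting error. CIART in 6M stands out in macrophage-like cells at 22.2 CPM, and NR1D1 in 3M in gonadotroph-like cells at 9.44 CPM.

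The classes also differed in which clock genes they carried, within each library. For 5 of the 10 genes the same class had the highest level at both ages. CLOCK was highest in endothelial-like cells in both libraries, and its interval there overlapped that of no other class. DBP was highest in gonadotroph-like cells, followed by stem or folliculostellate-like cells at 113 CPM in 6M and 108 CPM in 3M. These 2 classes did not differ beyond their intervals in 6M, but they did in 3M. PER3 was also highest in gonadotroph-like cells, at 17.9 CPM in 6M and 18.5 CPM in 3M, and its interval overlapped that of stem or folliculostellate-like cells in both libraries. Unnamed cluster 24, which carried gonadotroph markers and came almost wholly from 6M, was left out of this class. Its DBP and PER3 levels were below those of cluster 19, so both leads in 6M hold for the class without it. PER2 was highest in stem or folliculostellate-like cells, at 34.0 CPM in 6M and 31.2 CPM in 3M, and cycling cells came next in both libraries. The lowest PER2 level was in T or NK-like cells, with 5 UMIs in 6M and 0 in 3M.

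For the other genes the leading class was not the same at both ages. PER1 led in T or NK-like cells in 6M (117 CPM) and in macrophage-like cells in 3M (140.2 CPM), and these 2 immune classes did not differ beyond their intervals in either library. Lactotroph-like cells had the lowest PER1 and NR1D2 levels at both ages. Their interval overlapped that of the next class for both genes in 6M and for NR1D2 in 3M. The totals behind all these levels include hormone UMIs, and PRL alone made up 34.8% of all UMIs in 6M and 21.7% in 3M. Classes were thus not compared on hormone-free totals, and their order on such totals is not given here. NR1D2 led in stem or folliculostellate-like cells in 6M and in macrophage-like cells in 3M. NR1D1 led in endothelial-like cells in 6M and in gonadotroph-like cells in 3M. CRY1 led in T or NK-like cells in 6M (15.9 CPM) and in somatotroph-like cells in 3M (10.9 CPM), but neighbours in its order overlapped throughout, and CRY2 behaved alike with its lead in stem or folliculostellate-like cells in 6M (10.7 CPM) and somatotroph-like cells in 3M (11.6 CPM).

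Lactotroph-like cells were the only class in which every measured gene was higher. Of the 10 genes, 9 had an interval above 0, against 33.6% of the 12094 genes measured there, and 3 were at least 2-fold higher, against 2.33%. The median ratio of the clock genes was 0.68, beside 0.03 for all measured genes. Different clusters led this class in each library, so ratios were also taken within clusters. Cluster 12 is the lactotroph-like cluster with many cells from both libraries, 784 in 6M and 578 in 3M. All 8 genes measured in it were higher in 6M, as were the other 2, with measured ratios from 0.05 for CLOCK (-0.17 to 0.28) to 1.09 for CRY1 (0.57 to 1.64). PER3 was at 0.97 there (0.37 to 1.61), PER1 at 0.59 (0.37 to 0.82) and DBP at 0.49 (0.22 to 0.76). Cluster 13 held 3311 cells in 6M and 153 in 3M. In it 7 of 9 measured genes were higher, among them CRY1 at 0.94 (0.12 to 1.90) and DBP at 0.49 (0.13 to 0.89), while NR1D2 was at -0.14 (-0.69 to 0.46) and CLOCK at -0.09 (-0.41 to 0.25). In cluster 8, with 1316 cells in 6M and 67 in 3M, 4 of 6 measured genes were higher, and DBP at 0.77 (0.02 to 1.65) was the one whose interval left out 0. In cluster 9, with 58 cells in 6M and 1565 in 3M, 4 of 6 were likewise higher and every interval held 0. DBP was at -0.27 (-1.06 to 0.42) there and CRY1 at 0.38 (-1.09 to 1.55).

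Across the 15 clusters with at least 50 cells from each library, 53 of 83 measured pairs of gene and cluster were higher in 6M and 30 lower. The share of all genes higher in these clusters is not given here, so the cluster counts cannot be read against it. CRY1 was higher in 8 of 8 measured clusters, with an interval above 0 in 3 of them. With clusters under the minimum included it was higher in 14 of 15, and the exception was cluster 15, an unnamed cluster nearest to stem cells, at -0.21. PER1 was higher in 8 of 14 clusters, DBP in 7 of 13, CLOCK in 9 of 13 and NR1D2 in 7 of 12. The 2 stem or folliculostellate-like clusters held small ratios: NR1D2 was at -0.05 in cluster 1 (-0.29 to 0.19) and 0.30 in cluster 2 (-0.07 to 0.64), beside 0.33 over the class. PER1 was at 0.18 (-0.04 to 0.42) and 0.26 (-0.07 to 0.57), beside 0.38.

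**Figure D3:**
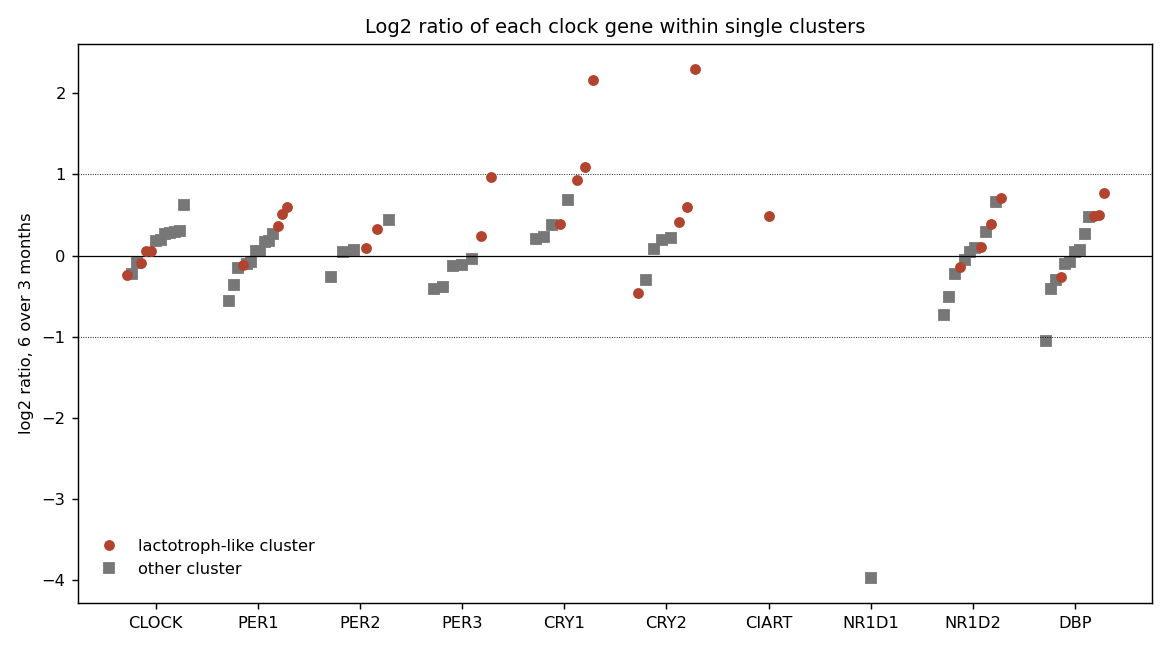
Log2 ratio (6M over 3M, vertical axis) of each clock gene within single clusters that had at least 50 cells from each library, where the gene had at least 100 summed UMIs. Red circles are lactotroph-like clusters, grey squares are other clusters and dotted lines mark 2-fold. The CIART point is a lower bound against 0 UMIs in 3M, all 8 CRY1 points lie above 0, and the lone NR1D1 point is cluster 19 at -3.97.

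In gonadotroph-like cells the median ratio was -0.30 over the 7 measured clock genes and -0.01 over all genes. The interval was below 0 for NR1D1, NR1D2 and DBP, 3 of the 7, against 13.2% of genes in the class, and NR1D1 alone was at least 2-fold lower, against 3.79%. The intervals of PER1, PER3 and CLOCK held 0. Below the minimum, CRY2 was at 0.83 (-0.16 to 1.71), CIART at 0.53 (-1.88 to 2.32) and PER2 at 0.08 (-1.11 to 1.08). Cluster 19 by itself gave -3.97 for NR1D1 (1 UMI in 88 cells in 6M and 127 in 879 in 3M). An unnamed cluster, 24, carried gonadotroph markers such as LHB, CGA and GNRHR and came almost wholly from 6M, with 161 cells in 6M and 2 in 3M. It held 0 UMIs of NR1D1, an upper limit of 1.09 CPM, and 15.4 CPM of DBP, against 133 CPM in cluster 19 in 6M and 171 CPM in 3M. PER3 was at 0.887 CPM in cluster 24 (3 UMIs), against 18.3 CPM in cluster 19 in 6M. With cluster 24 counted as gonadotroph-like, a choice made after seeing the data, DBP was at -1.46, PER3 at -1.36, NR1D2 at -1.01 and NR1D1 at -5.43, while CRY1 remained higher at 0.66. How far the class differed in these genes in 6M thus depended on whether cluster 24 was part of it.

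In macrophage-like cells the interval lay above 0 for 3 clock genes, against 30.1% of genes, and below 0 for 2, against 21.6%. Of the 6 measured, 2 were at least 2-fold higher, against 5.82% of genes, and none at least 2-fold lower, against 3.59%. CIART, CRY1 and CLOCK were higher, and PER1, NR1D2 and DBP lower. Since cluster 3 held most of these cells in 6M and cluster 22 in 3M, with 12 cells of cluster 3 from 3M and 40 of cluster 22 from 6M, no within-cluster ratio was taken there. Free RNA was expected to give 16.2% of CRY1 UMIs in 6M and 16.5% in 3M, and to give 2.84% of CIART UMIs in 6M and 4.13% in 3M. With that RNA subtracted, the ratios in macrophage-like cells were 1.84 for CRY1 and 2.68 for CIART.

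Shares of cells with at least 1 UMI were compared after each cell was thinned to 2000 UMIs, since cells differed in depth. No class was known to lack clock genes and so to give the share that free RNA brings. CIART was found in 5.23% (exact Clopper-Pearson interval 4.06 to 6.61) of 1244 macrophage-like cells in 6M and in 0.939% (0.470 to 1.67) of 1171 in 3M. The unthinned shares were 10.2% in 6M and 1.66% in 3M. CRY1 was found in 2.43% (2.04 to 2.88) of 5506 lactotroph-like cells in 6M and in 0.853% (0.529 to 1.30) of 2462 in 3M, or 14.0% in 6M and 6.13% in 3M unthinned. DBP was found in 18.0% (14.6 to 21.9) of 460 somatotroph-like cells in 6M and in 10.2% (8.52 to 12.1) of 1156 in 3M. PER1 was found in 221 of 1244 macrophage-like cells (17.8%) in 6M and in 276 of 1171 (23.6%) in 3M, in cells that lay mostly in different clusters. For NR1D1 in gonadotroph-like cells the thinned shares were 0 of 89 cells in 6M, with an upper bound of 4.06%, and 2.08% (1.29 to 3.16) of 1009 cells in 3M, so thinning left no detectable difference. Unthinned, 0.980% of those cells in 6M and 10.1% in 3M had an NR1D1 UMI.

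Over all kept cells, 5 genes were higher and 5 lower in 6M, where 50.5% of all genes were higher. CIART alone was 2-fold apart (1.17, 0.92 to 1.42), against 4.57% of genes 2-fold higher and 7.05% lower, and it was at 0.95, short of 2-fold, when scaled by UMI totals. The interval lay above 0 for 5 clock genes (40.0% of all genes) and below 0 for 4 (38.5%). CRY1 was at 0.85 (0.73 to 0.98), PER1 at 0.29 (0.24 to 0.34), NR1D1 at -0.69 (-0.91 to -0.46), PER3 at -0.48 (-0.61 to -0.36), DBP at -0.43 (-0.47 to -0.38) and NR1D2 at -0.25 (-0.32 to -0.18). DBP and PER3 were thus lower over all cells and higher in lactotroph-like cells. The class makeup moved with these values: gonadotroph-like cells, where DBP and PER3 were highest, made up 0.804% of cells in 6M and 7.60% in 3M, and lactotroph-like cells, where both were lower than in gonadotroph-like cells, made up 45.2% in 6M and 17.3% in 3M. In such sums, fewer cells of a type and less RNA per cell cannot be told apart.

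Some clock genes resembled each other across classes and others did not. Over 18 points, the 9 classes in each of 2 libraries, PER3 and DBP had a Pearson r of 0.89 on log2(CPM + 5), and PER1 and DBP had -0.41. CRY1 had 0.07 with NR1D2 and 0.37 with DBP. Of 9198 genes compared, those most like PER3 were WASF3 (0.93), NIPAL3 (0.91) and ADGRA3 (0.90), and those most like DBP were AHCYL2 (0.92), WASF3 (0.92) and TRIM23 (0.91). CLOCK was most like SSPN (0.955), BACE1 and CORO2B, PER1 most like SIRT7 (0.935), TRA2A and CHD2, and NR1D2 most like JMJD1C (0.895), RNF19A and MAPKAPK3. CRY1 had no close match, with GTPBP1 first at 0.78, then MOCS3 and SENP6. The points share 2 libraries and differ in depth, and genes of a class tend to move together, so these values only describe the likeness.

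The rest of the clock list held 30 genes, of which 29 were found. Of 26 measured in lactotroph-like cells, 2 reached 2-fold higher and 0 lower, where 2.33% of all genes were higher and 4.2% lower by that much. In gonadotroph-like cells 0 of 22 were higher (1.46% of genes) and 3 lower (3.79%). In stem or folliculostellate-like cells 4 of 27 were higher (4.95%) and 0 lower (2.07%). In endothelial-like cells 1 of 21 was higher (3.17%) and 0 lower (2.89%). Macrophage-like cells had 1 of 20 higher (5.82%) and 1 lower (3.59%), and dendritic-like cells 1 of 14 higher (7.23%) and 1 lower (3.26%). T or NK-like cells had 1 of 13 higher (9.76%) and 0 lower (3.11%). Somatotroph-like cells had 0 of 23 in either direction (0.561% higher and 1.89% lower), as had cycling cells with 0 of 10 (2.33% and 1.44%). The direction again differed by class, with medians of 0.47 in lactotroph-like and -0.12 in gonadotroph-like cells. ARNTL, which encodes BMAL1, was at 0.64 in lactotroph-like and 0.18 in stem or folliculostellate-like cells, and NPAS2, which can stand in for CLOCK, was at -0.23 and 0.95. TEF and HLF, relatives of DBP, were at 1.23 and 0.73 in lactotroph-like cells and at 0.76 and 0.92 in somatotroph-like cells. TEF was at 0.30 in gonadotroph-like, -0.17 in stem or folliculostellate-like and -0.28 in endothelial-like cells. HLF was at -0.41 in gonadotroph-like, -0.41 in stem or folliculostellate-like and -0.75 in endothelial-like cells.

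NFIL3, which opposes DBP at its target sites, was at 2.10 in stem or folliculostellate-like cells and at -0.86 in gonadotroph-like cells. BHLHE40 and BHLHE41, repressors of the activator pair, were lower in gonadotroph-like cells (-1.05 and -1.31) and at 1.13 and 0.57 in macrophage-like cells. RORA, an activator of BMAL1 that competes with the REV-ERB receptors, was at 0.53 in lactotroph-like and -0.60 in gonadotroph-like cells. NOCT, a rhythmic gene that also responds to stimuli, was 2-fold apart in 5 classes, from 2.16 in stem or folliculostellate-like and 1.65 in endothelial-like cells to -1.16 in gonadotroph-like, -1.44 in macrophage-like and -1.78 in dendritic-like cells. KLF10 was at 1.72 and SIRT1 at 1.38 in stem or folliculostellate-like cells, and USP2 was at 1.15 in lactotroph-like cells.

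**Figure D4:**
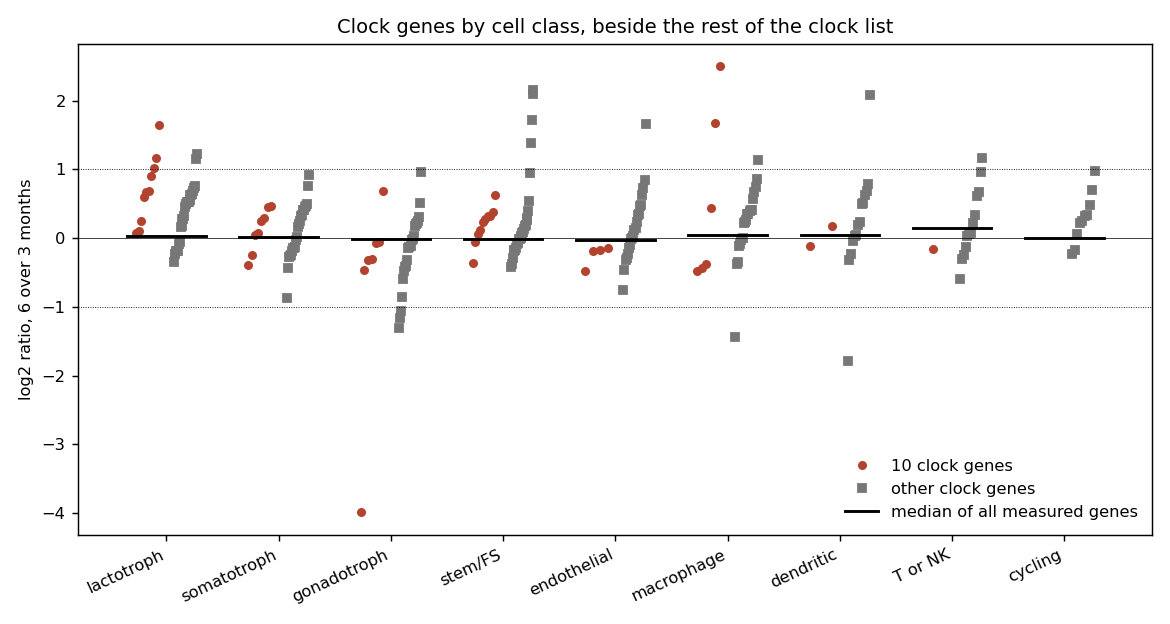
Log2 ratio (6M over 3M, vertical axis) by cell class for the 10 clock genes (red circles) and the other clock genes (grey squares) with at least 100 summed UMIs. Black lines are the median of all genes measured in the class and dotted lines mark 2-fold. All red points lie above the line in lactotroph-like cells and 6 of 7 below it in gonadotroph-like cells.

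Genes that answer to handling, hormones and temperature also differed between the libraries, and their part in the clock gene values was not tested. Of the early response genes, 11 of 23 measured were at least 2-fold lower in macrophage-like cells (3.59% of all genes). In gonadotroph-like cells 9 of 22 were lower (3.79%) and 1 higher (1.46%), and in somatotroph-like cells 5 of 17 were lower (1.89%). In endothelial-like cells 6 of 21 were at least 2-fold higher (3.17%). Their medians were -0.93, -0.75, -0.61 and 0.65 in these classes, -0.28 in lactotroph-like and 0.16 in stem or folliculostellate-like cells. In stem or folliculostellate-like cells 6 of 23 were at least 2-fold higher (4.95% of all genes) and 3 lower (2.07%). ZFP36 was lower in all 9 classes (-2.57 to -0.86) and 2-fold lower in 8. KLF2 and IER2 were lower in 8 classes, and ATF3 and FOS in 7. CREM went the other way, higher in 8 of 9 classes (-0.12 to 1.40) and 2-fold higher in 3. HSPA1A, a heat shock gene, was at least 2-fold higher in 9 of 9 classes (1.45 to 3.17), while no other gene of the temperature list but DNAJA1 was 2-fold apart in any class, and CIRBP, which is induced by cold, was lower in 8 of 9 (-0.77 to 0.00). HSPA1A belongs to a family of similar genes, so its counts are uncertain.

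Glucocorticoid response genes, which include direct inputs to PER1, were mixed. Their median was 0.17 in lactotroph-like, 0.27 in stem or folliculostellate-like and -0.38 in macrophage-like cells. ERRFI1 was at least 2-fold higher in 4 classes, FKBP5 lay between -0.67 in lactotroph-like and 1.20 in gonadotroph-like cells, and TSC22D3 (-0.72 to 0.29) and KLF9 (-0.20 to 0.73) were 2-fold apart in no class. Of the melatonin and pars tuberalis list, MTNR1A, the melatonin receptor gene, had 113 UMIs in 6M and 332 in 3M over all cells and reached the minimum in no class. CHGA was at least 2-fold lower in 7 of 8 classes, with 17951 UMIs in 6M and 107528 in 3M over all cells. Of that list, 1 of 8 genes was at least 2-fold higher in lactotroph-like cells (2.33% of all genes) and 3 lower (4.2%). Of 7 in stem or folliculostellate-like cells, 1 was higher (4.95%) and 2 lower (2.07%), and in endothelial-like cells 0 of 5 were higher (3.17%) and 3 lower (2.89%). The list holds hormone-cell genes such as CHGA, CGA and TSHB. The part of free RNA in their values in other classes was not tested.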

How the data were processed

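Cells of the anterior pituitary were counted in 2 droplet libraries, 1 per age. For each barcode the authors deposited whole UMI counts of every listed gene, unnormalised and made with Cell Ranger, version 5.0.0 per the submitters' processing notes and 5.0.1 per the file headers. No label or header names the genome build or annotation. The deposited lists of genes and barcodes hold names only.

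Of 23141 gene IDs, 22726 matched a RefSeq gene table (98.2%), which named 447 placeholder symbols. The filter asked for 500 or more genes and 1000 or more UMIs per barcode. Scrublet in scanpy 1.11.5 marked 570 of 13253 at 6 months (4.30%) and 922 of 16368 at 3 months (5.63%) as doublets, which were removed. Clusters came from 3000 variable genes without hormone genes, 30 components, 15 neighbours and Leiden resolution 1.0. They were named from 133 markers (125 found), and a cluster with fewer than 3 supporting markers or with leading genes of another class stayed unnamed. The names are rebuilt here and may differ from the study's.

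Counts were summed per class and library and scaled with TMM in edgeR 4.0.16. With 1 library per age no test was run. Ratios have exact conditional binomial intervals, levels exact Poisson intervals and shares exact Clopper-Pearson intervals, all at 95% and for counting error only. A gene was called 2-fold apart with at least 100 summed UMIs. Where a library had no UMI, the floor was 3 UMIs. Free RNA was estimated from PRL in endothelial and immune cells, where it made up 7.87% of UMIs at 6 months and 2.73% at 3 months. The ratio and interval code was tested on simulated data.

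The 10 genes and all lists (other clock, glucocorticoid response, early response, temperature, and melatonin and pars tuberalis genes) were chosen with earlier results of these data known. From each list at most 6 genes are named, those 2-fold apart in the most classes, with ties by the all-cell ratio, plus a set chosen by role. For likeness, the 3 genes of highest r are named for each clock gene measured in at least 4 classes. Promoter motifs were not analysed here. Alternatives covered scaling, cell filters, doublets, clustering, class definition, free RNA, count minimum, fold and thinning.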

Additional observations from a re-analysis of the deposited data

Results flagged for a closer look

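For 4 clock genes the interval lay above 0 in one cell class and below 0 in another, and the 2 classes were at least 1 apart on the log2 scale. NR1D2 also had intervals on both sides of 0, at 0.33 in stem or folliculostellate-like cells and -0.47 in gonadotroph-like cells, but its classes lay closer together than that. None of these differences was tested, since each age had 1 library. NR1D1 was at 0.62 in stem or folliculostellate-like cells and at -3.99 in gonadotroph-like cells, a difference of 4.61 on the log2 scale. The gonadotroph-like value rests on 1 UMI in 6M, and the stem or folliculostellate-like value took the other sign in 3 of 12 alternatives. PER1 was at 0.67 in lactotroph-like cells and at -0.48 in macrophage-like cells, a difference of 1.14. PER3 was at 1.02 in lactotroph-like cells and at -0.36 in stem or folliculostellate-like cells, a difference of 1.38. DBP was at 0.91 in lactotroph-like cells and at -0.48 in endothelial-like cells, a difference of 1.39. Lactotroph-like, stem or folliculostellate-like and macrophage-like cells lay mostly in different clusters in the 2 libraries. Within clusters that both libraries shared, DBP was at 0.49 in lactotroph-like cluster 12 and at -0.10 (-0.54 to 0.31) in endothelial-like cluster 7, where the interval held 0.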

How the results depend on the processing

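No paired analysis was possible because each age had 1 library, and for the same reason no replicate could be left out. Of 632 recomputed ratios, 577 moved by less than their counting interval and 55 by more, and no value called 2-fold apart changed sign. CRY1 kept its sign in all its measured classes under every alternative, as did CIART, while NR1D1 in stem or folliculostellate-like cells took the other sign in 3 of 12 (-0.13 to 0.74). Of the 6 calls of 2-fold, 1 was left when clusters of 1 library were left out, 2 with at least 300 summed UMIs, and 12 were made at 1.5-fold. The 2-fold lower calls, 1 in all, became 4 under the stricter cell filter and with unnamed clusters joined, and 3 with marker gates and at Leiden resolution 0.5. The 29 higher and 19 lower of 48 pairs became 18 and 13 of 31 with at least 300 UMIs, 24 and 8 of 32 without clusters of 1 library, and 34 and 16 of 50 under the stricter filter. Over all cells, 3 in place of 5 clock genes were higher with UMI totals and with the mean of per-cell CPM. With UMI totals CLOCK was at -0.13, CRY2 at -0.06 and CIART at 0.95 over all cells, so that the 2-fold call of CIART was lost, and the median of all genes by class ran from -0.11 in endothelial-like to 0.24 in somatotroph-like cells. The 15 calls among other clock genes became 8 without clusters of 1 library, 24 at 30 UMIs and 44 at 1.5-fold, and the 95 calls in the companion lists became 186 at 1.5-fold. The same class led at both ages for 3 in place of 5 genes with marker gates and with unnamed clusters joined to their nearest class, an alternative chosen after seeing the data. Without thinning, 76 in place of 49 of 90 shares were higher at 6 months. Under the stricter cell filter Scrublet marked no barcode of the 6-month library and so did not work there. Some settings left classes with too few cells: dendritic-like under other cell filters, and gonadotroph-like, macrophage-like and T or NK-like without clusters of 1 library. The causes of these shifts were not tested. Depth limits CIART, NR1D1, CRY2 and PER2 most, which reached 100 UMIs in 3 classes each.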
